A study of Mus musculus with 4 samples.

Results

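The broadest PHF2 peaks are the 300 longest of the 5992 peaks called in a PHF2 chromatin immunoprecipitation (ChIP-seq) of mouse neural stem cells. They were chosen by length alone, at or above the 95th percentile, which lay at 2551 bp, and the other 5692 peaks are called the remaining peaks. Broad peaks were 2552 to 6534 bp long with a median of 3024 bp, and the remaining peaks had a median of 1281 bp. PHF2 peaks were given to protein-coding genes by an overlap of 1 bp or more with a promoter window, 1 kb on either side of a coding transcript start. By this rule 282 broad peaks lay at promoters of 297 coding genes, which is 1.37% of the 21670 coding genes, while PHF2 peaks of any length lay at 29.1% of them. Among the genes with a PHF2 peak, 4.71% had a broad one.

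The series holds 4 samples, namely a PHF2 ChIP, an H3K9me2 ChIP and an input for each, with 1 sample per kind. All came from cultured neural stem cells of wild-type C57BL/6J mouse embryos at E12.5, kept on poly-D-lysine and laminin in medium that held EGF at 20 ng/ml and FGF at 10 ng/ml. The antibodies were D45A2 (Cell Signaling) for PHF2 and ab1220 (Abcam) for H3K9me2. The inputs were not analysed here, and peak lists give no read totals, so the depth is unknown. No spread between cultures can be measured with 1 ChIP per target, and peaks of 1 library are not replicates, so no test was made. Shares carry 95% Wilson intervals and medians carry 95% order-statistic intervals, and both cover counting error only.

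PHF2 is a histone demethylase of the Jumonji family. Its PHD finger binds H3K4me3, the histone mark of active promoters, and its catalytic domain is described as acting on H3K9me2, a mark of silent chromatin. CpG islands are stretches of DNA rich in unmethylated CG dinucleotides at most housekeeping and developmental promoters, and H3K4me3 usually covers them. In many cell types the widest H3K4me3 domains lie at genes of cell identity.

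The DNA under the flank of a broad peak can be compared directly with that beside a peak of ordinary length. The following windows of 150 bp are from the GRCm38 (mm10) genome, written 5′ to 3′ along the gene's strand, with CG dinucleotides in capitals. Each is the nearest window, at least 1000 bp downstream of the start, that is free of annotated exons. Srgap2 has the longest peak, and its window at chr1:131526198-131526347, 1000 bp downstream of the start, holds 6 CG.
Srgap2: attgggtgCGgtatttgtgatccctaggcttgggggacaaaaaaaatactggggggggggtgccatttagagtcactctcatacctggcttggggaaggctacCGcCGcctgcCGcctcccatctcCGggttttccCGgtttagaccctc
Bahcc1 has the longest island, and its window at chr11:120237699-120237848, 1000 bp downstream of the start, holds 8 CG.
Bahcc1: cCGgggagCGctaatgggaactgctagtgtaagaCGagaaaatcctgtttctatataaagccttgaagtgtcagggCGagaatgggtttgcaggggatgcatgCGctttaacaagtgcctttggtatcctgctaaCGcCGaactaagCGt
Adgrl2 has a peak that reaches far into intron 1, and its window at chr3:148988436-148988585, 1970 bp downstream, holds 16 CG.
Adgrl2: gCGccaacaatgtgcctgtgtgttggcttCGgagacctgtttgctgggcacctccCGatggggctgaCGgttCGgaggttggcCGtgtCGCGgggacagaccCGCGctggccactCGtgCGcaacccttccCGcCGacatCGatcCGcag
Map2 has a broad peak without an island, and its window at chr1:66323762-66323911, 1660 bp downstream, holds 2 CG.
Map2: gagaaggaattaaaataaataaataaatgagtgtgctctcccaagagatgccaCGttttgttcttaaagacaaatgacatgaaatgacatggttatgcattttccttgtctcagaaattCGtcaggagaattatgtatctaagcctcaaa
Acot1 has a peak of 1306 bp, the median length of all PHF2 peaks, and its window at chr12:84010490-84010639, 1000 bp downstream and already outside the peak, holds 2 CG.
Acot1: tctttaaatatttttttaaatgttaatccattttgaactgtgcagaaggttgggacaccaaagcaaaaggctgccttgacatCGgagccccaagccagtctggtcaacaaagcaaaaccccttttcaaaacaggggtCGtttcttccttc
The first 3 windows lie inside broad peaks with islands and hold 6 to 16 CG. Over all 282 broad peaks at coding promoters, the window that begins 1000 bp downstream of the start held a median of 5 CG, against 2 CG at the 5448 remaining promoter peaks. At least 10 CG were present in 82 of the broad windows (29.1%) and in 5.98% of the remaining ones.

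A small set of broad peaks covered microRNA genes rather than coding promoters. The mature sequences below are from RefSeq (GRCm38.p6), with the seed, bases 2 to 8, in capitals. They are shown because these peaks have no coding start to be named by.
mmu-miR-9-5p, from both Mir9-1 and Mir9-2: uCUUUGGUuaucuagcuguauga
mmu-miR-125b-5p, from Mir125b-1: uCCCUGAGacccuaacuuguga
mmu-let-7i-5p, from Mirlet7i: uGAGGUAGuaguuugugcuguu
The 3 seeds differ from each other, and the miR-9 loci Mir9-1 and Mir9-2 each held a broad peak, while Mir9-3 lay in a narrower PHF2 peak of 2166 bp. miR-9 is abundant in neural progenitors, and miR-125b and let-7 are known for their part in progenitor differentiation.

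The longest peaks included those at transcription factor genes, at inhibitors of growth factor signalling and at genes of cell shape and adhesion. The longest of all, 6534 bp at chr1:131523057-131529590, covered the shared promoter of Srgap2, which encodes a membrane-bending regulator of neuronal migration, and Fam72a. The second longest, 6347 bp, lay at the noncoding nuclear RNA gene Malat1 (chr19:5797015-5803361). Olig2, which encodes a basic helix-loop-helix (bHLH) factor of ventral progenitors and oligodendrocytes, had 6200 bp (chr16:91224338-91230537). Spry4, a Sprouty inhibitor of receptor tyrosine kinase signalling, had 6071 bp. Bahcc1, which encodes a chromatin reader with a BAH domain, had 5842 bp (chr11:120232511-120238352). Sox11 had 5634 bp, Dusp6 5457 bp, Spry2 5400 bp, Marcks 5287 bp and Adgrl2 5095 bp. Sox11 encodes a factor of early neurons, Dusp6 a phosphatase of ERK, Spry2 a further Sprouty inhibitor, Marcks an actin-binding substrate of protein kinase C, and Adgrl2 an adhesion receptor of the latrophilin group. From rank 11 to rank 20 the peaks were 4981 to 4565 bp long, at Sox2, Sema6a, Sall3, Rfx4, Fat1, Sox4, Jun, Pou3f1, Sox9 and Ext1. Sall3, Rfx4 and Pou3f1 encode transcription factors of the developing brain, Jun a subunit of AP-1, Sema6a a guidance cue, Fat1 a giant cadherin and Ext1 an enzyme that extends heparan sulphate. Of these 20 peaks, 19 were at a coding promoter, and Malat1 was the exception.

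Length went together with the authors' score, the 1 value deposited for each peak, on a scale that no source used here gives. The median score was 993.8 for broad peaks and 221.5 for the remaining peaks, and Spearman's rho between length and score was 0.84 over all 5992 peaks. Both come from the same reads, so this is a description of the peaks that were chosen. Of the 300 broad peaks, 196 (65.3%) were also among the 300 highest-scoring. Olig2, Spry4, Dusp6 and Malat1 shared a score of 3100, and Spry2 had 3226. Hjurp, a gene for the chaperone that loads the centromeric histone, was the broad peak with the lowest score (144.3, length 4182 bp) and the only broad peak under the median score of 229.1. Because length and score go together, 201 remaining peaks with a score of at least 715.6, the lower quartile of the broad peaks, are given beside the results as high-scoring narrower peaks. These narrower peaks had a median length of 2150 bp and a median score of 825.4. At the threshold the shortest broad peaks included a peak at Mirlet7i with 2553 bp and a peak with no annotated start within 1 kb with 2552 bp, while the longest of the remaining peaks were Arhgap5 with 2551 bp, Foxn3 with 2549 bp and Cdh4 with 2548 bp.

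**Figure D1:**
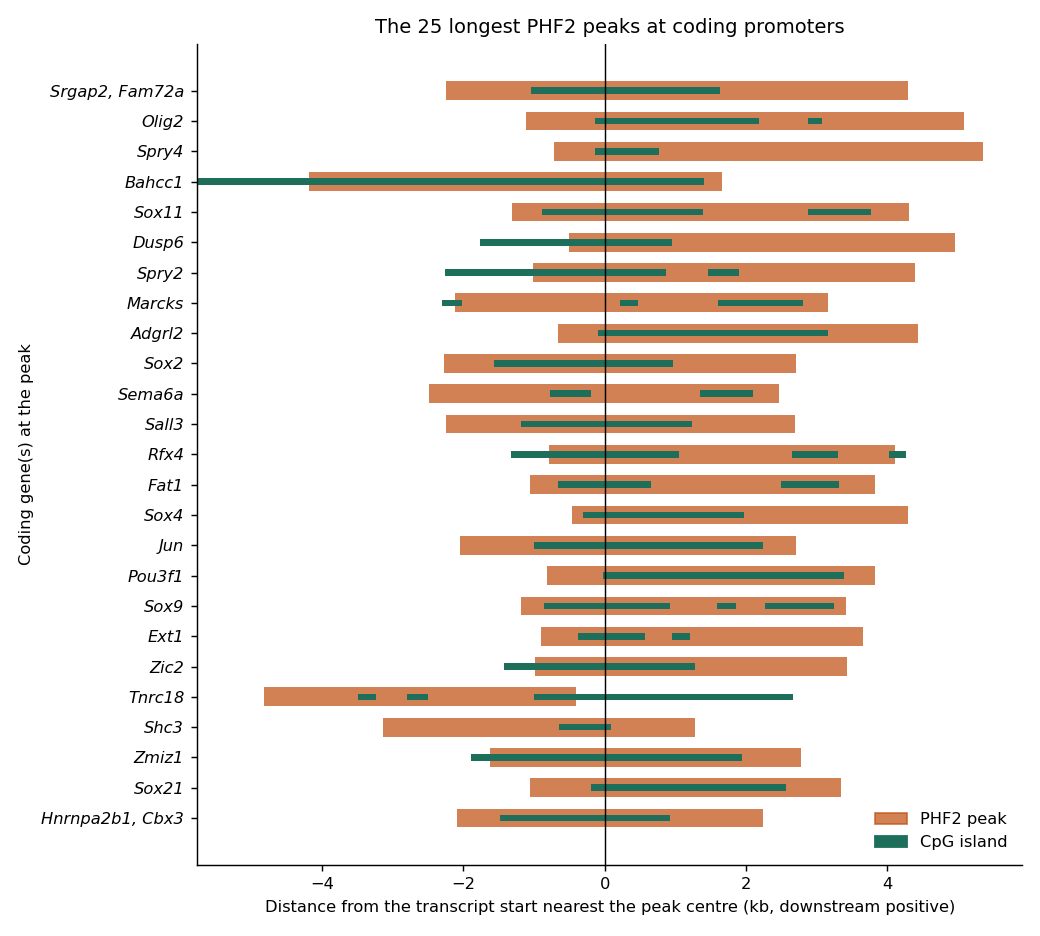
The 25 longest PHF2 peaks at coding promoters, drawn to scale around the transcript start nearest the peak centre (horizontal axis in kb, downstream to the right), with CpG islands as narrow bars. Most bars extend farther to the right of the start. Bahcc1, Tnrc18, Shc3 and, slightly, Sema6a extend farther to the left, and the island at Bahcc1 extends farther left than its peak.

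The label of the cells was set against the promoters of marker genes, although a peak list holds no expression. Of 12 neural stem cell markers, 8 had a broad PHF2 peak and 10 had a peak of any length. Over all coding genes, 1.37% had a broad PHF2 peak and 29.1% had one of any length. Broad peaks lay at Sox2 (4981 bp) and Sox9 (4602 bp), transcription factors of progenitors, at Nes (4262 bp) and Vim (3692 bp), intermediate filaments of progenitors, and at Hes1 (3942 bp), the bHLH repressor downstream of Notch. They also lay at the glutamate transporter gene Slc1a3 (3198 bp), at Notch1 (3009 bp) and at Pax6 (2573 bp). Fabp7 had a narrower peak. Of 5 neuronal markers, Map2 alone had a peak (2678 bp), and of 5 markers of the oligodendrocyte lineage Olig1 and Olig2 did. None of 4 astrocyte, 3 microglial or 3 endothelial markers had a PHF2 peak of any length.

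Genes that restrain growth factor signalling were among those with the longest peaks. The part of the EGF and FGF in the medium was not tested. For comparison, 1.37% of all coding genes had a broad peak, as did 4.71% of those with a PHF2 peak. Of 25 genes that restrain growth factor signalling, 8 had a broad peak (32.0%, 17.2% to 51.6%), and 17 had a peak of any length. They were Spry4, Dusp6 and Spry2, named above, with Trib2 (4314 bp), a pseudokinase gene, Spred1 (4306 bp), an inhibitor of Ras signalling, Dusp4 (3846 bp), a MAP kinase phosphatase, Lrig1 (3713 bp), which restrains the EGF receptor, and Spry1 (3485 bp). Errfi1, Dusp1 and Spred2 were among the 9 with narrower peaks only. The ETS factor genes Etv5 (3593 bp) and Etv1 (3369 bp), which FGF signalling is known to induce, were among 4 of 20 ETS genes with a broad peak (20.0%, 8.07% to 41.6%). Immediate early genes had broad peaks at 4 of 20 (20.0%, 8.07% to 41.6%), namely Jun (4753 bp), Egr1 (3022 bp), Ier5l (2857 bp) and Ier5 (2696 bp). Fos, Junb and Atf3 had narrower peaks. Myc (3755 bp), Ccnd1 (3674 bp), which encodes cyclin D1, E2f3 (2573 bp) and Cdkn1a (2561 bp), a cyclin-dependent kinase inhibitor gene, were the members among 29 genes of the Myc network and G1 phase (13.8%, 5.50% to 30.6%).

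Sox factors made up the family with the largest share among the 11 families and pathways of regulators examined. The share with a broad peak was 1.37% over all coding genes and 4.71% over those with a PHF2 peak. Of 19 Sox genes, 7 had a broad peak (36.8%, 19.2% to 59.0%): Sox11, Sox2, Sox4 (4768 bp), Sox9, Sox21 (4403 bp), Sox6 (4171 bp) and Sox8 (2704 bp). Sox1, Sox3, Sox5, Sox12 and Sox13 had narrower peaks. Among 27 bHLH genes of neural progenitors 5 had a broad peak (18.5%, 8.18% to 36.7%): Olig2, Hes1, Tcf4 (3916 bp and a further one of 3031 bp), Olig1 (3119 bp) and Id2 (2687 bp). In the Notch pathway the genes were Lfng (3347 bp), which modifies the receptor, Maml2 (3323 bp), a coactivator gene, Jag1 (3123 bp), a ligand gene, and Notch1, or 4 of 25 (16.0%, 6.4% to 34.7%). Klf and Sp factors had 5 of 22 (22.7%, 10.1% to 43.4%), all of them Klf genes: Klf7 (4199 bp), Klf6 (3735 bp), Klf3 (3519 bp), Klf13 (3316 bp) and Klf10 (3304 bp).

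Chromatin genes at broad peaks included readers and co-repressors. Of 74 such genes 14 had a broad peak (18.9%, 11.6% to 29.3%), and 54 had a peak of any length. They included Bahcc1, Zmiz1 (4407 bp), Cbx3 (4340 bp), a heterochromatin protein gene that shares its promoter with Hnrnpa2b1, Kmt2e (3985 bp), the remodeller gene Chd7 (3701 bp), the Groucho co-repressor gene Tle1 (3457 bp), and the nuclear receptor co-repressor gene Ncor1 (2998 bp). Phf2 itself had a narrower peak, as did Ezh2, Suz12, Crebbp and Ep300. Axon guidance and adhesion genes had broad peaks at 6 of 50 (12%, 5.62% to 23.8%), which besides Srgap2 were the semaphorin genes Sema6a (4961 bp) and Sema6d (3541 bp), the cadherin gene Cdh2 (3754 bp), Efnb2 (3200 bp) and Ncam1 (2758 bp). Wnt pathway genes had 3 of 36 (8.33%, 2.88% to 21.8%): the ligand gene Wnt5a (3886 bp), the receptor gene Fzd1 (2671 bp) and the kinase gene Gsk3b (2606 bp). Beside these lists, 1.37% of all coding genes and 4.71% of those with a PHF2 peak had a broad one.

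In 5 housekeeping families no gene with a PHF2 peak had a broad one. Of 80 cytosolic ribosomal protein genes, 74 had a PHF2 peak and 0 had a broad peak, which allows a share of up to 4.58% by the Wilson limit. The count of broad peaks was also 0 at 78 mitochondrial ribosomal protein genes (48 with a peak), 66 respiratory chain genes (34 with a peak), 39 proteasome genes (23 with a peak) and 67 replication-dependent histone genes (38 with a peak), with upper limits of 4.69% to 8.97%. Each limit is over all genes of 1 family and lies above the 1.37% of all coding genes. Taken singly, the zeros therefore do not set a family apart from coding genes in general. Among coding genes with a PHF2 peak the share was 4.71%. No limit was computed for the family members with a peak, and the families were not pooled. Zinc finger genes named Zfp had 7 broad peaks among 394 genes (1.78%, 0.863% to 3.62%), near the 1.37% of all coding genes. Zfp521, a factor of neural progenitors, was the longest of them with 4306 bp. None of 1134 olfactory receptor genes had a peak of any length. These lists and their names were chosen with results of the same peaks known, so their shares describe these genes and were not tested.

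Nearly all peaks of both classes overlapped coding promoters, and a smaller share of the broad ones covered promoters of 2 genes. Of all PHF2 peaks 95.6% overlapped a coding promoter, with 94.0% of broad peaks (90.7% to 96.2%) and 95.7% of remaining peaks. Promoters of 2 genes lay under 19 broad peaks, 6.33% (4.09% to 9.68%), against 13.5% of the remaining peaks (12.6% to 14.4%) and 8.46% of the high-scoring narrower ones. The longest of the 19 after Srgap2 and Fam72a was Hnrnpa2b1 with Cbx3 (4340 bp). Zbtb1 with Zbtb25 (3218 bp), Pigl with Ncor1 (2998 bp), Cep95 with Ddx5 (2704 bp), Nr2e1 with Ostm1 (2701 bp) and Mfsd11 with Srsf2 (2592 bp) were others. Nr2e1 encodes the orphan receptor Tlx of neural stem cells, and Ddx5, Srsf2 and Hnrnpa2b1 encode proteins of RNA processing. No broad peak covered 3 or more coding genes. Longer intervals could reach more windows, yet the broad peaks had the smaller share at 2 genes. Each of 4 genes had 2 broad peaks: Tcf4, Magi1 (2714 and 2592 bp), Tnrc18 (4416 and 3373 bp) and E130114P18Rik.

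From the start, broad peaks extended farther into the gene than away from it, as the remaining peaks did. The direction was measured from the transcript start nearest the peak centre. Among 282 broad peaks 218 were longer downstream, 77.3% (72.1% to 81.8%), and over all promoter peaks the share was 78.6%. It was 78.7% among the remaining peaks and 79.3% among the high-scoring narrower ones, both within the interval of the broad peaks. The median share of the peak downstream of the start was 64.7% (61.0% to 67.2%) for broad and 63.1% for remaining peaks. In bases, broad peaks reached 2017 bp downstream (1882 to 2144) and 1092 bp upstream (1004 to 1226) by median, and the remaining peaks reached 802 bp and 460 bp. Reach is part of the length by which the peaks were chosen, so these values are a description. With the 5′-most annotated start of each gene in place of the nearest, 89.4% of broad and 89.3% of remaining peaks were longer downstream. Broad peaks included the start itself in 98.2% of cases, against 95.7% of remaining peaks and 99.5% of high-scoring narrower peaks.

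**Figure D2:**
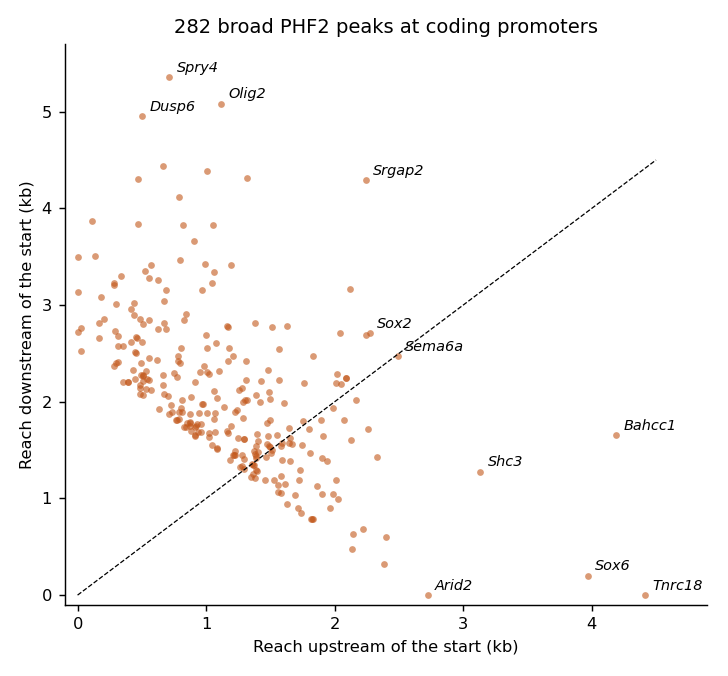
Reach of each of the 282 broad promoter peaks (points) upstream (horizontal axis, kb) and downstream (vertical axis, kb) of the nearest coding start; the dashed line marks equal reach. Spry4, Olig2 and Dusp6 lie high above the line at about 5 kb downstream, and Bahcc1, Sox6, Tnrc18, Shc3 and Arid2 lie below it.

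The extremes in direction fell on different genes. Spry4 reached 5358 bp downstream and 713 bp upstream, Olig2 5081 bp downstream and 1119 bp upstream, and Dusp6 4956 bp downstream and 501 bp upstream. Adgrl2 (4433 bp), Spry2 (4391 bp), Sox11 (4314 bp), Sox4 (4300 bp) and Srgap2 (4291 bp) followed. At Olig2, Dusp6 and Spry2 another PHF2 peak lay on the upstream side, across gaps of 176, 264 and 35 bp. Reach counts the broad peak alone, so the upstream values leave out these neighbours. Direction was not recomputed with neighbouring peaks joined. In the other direction, Bahcc1 reached 4188 bp upstream and 1654 bp downstream of the start nearest the peak centre. Sox6, which encodes a factor of interneuron and oligodendrocyte development, reached 3969 bp upstream and 202 bp downstream. For both genes the direction depended on the start used. From the 5′-most annotated start, Bahcc1 reached 436 bp upstream and 5406 bp downstream, and Sox6 0 bp upstream and 4171 bp downstream. A peak of 4416 bp at Tnrc18 (chr5:142818070-142822485), which encodes a BAH-domain protein related to Bahcc1, lay wholly upstream of the start, from -4823 to -407 bp. The other broad peak at Tnrc18, 66 bp away, spanned the start nearest its centre, with 623 bp upstream and 2750 bp downstream. A peak of 2725 bp at Arid2, a gene of the SWI/SNF remodelling complex, lay upstream of its start as well. It had another PHF2 peak 81 bp away. Sema6a was nearly symmetric, with 2468 bp downstream and 2493 bp upstream.

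A larger share of broad than of remaining peaks ended beyond intron 1. The downstream edge lay in intron 1 at 66.0% of broad peaks (60.3% to 71.2%) and 79.9% of remaining peaks, and in intron 2 at 13.8% (10.3% to 18.4%) and 6.96%. The edge lay past the end of the transcript whose start was nearest at 17 broad peaks, 6.03% (3.8% to 9.44%), against 0.844% of the remaining peaks and 4.66% of the high-scoring narrower peaks. A whole coding gene fitted inside 12 broad peaks, 4.26% (2.45% to 7.29%), where the background over all promoter peaks was 0.768%, the share of the remaining peaks was 0.587% and that of the high-scoring narrower peaks was 3.11% (1.43% to 6.62%). These 12 genes were short, from 462 to 4259 bp. They were Olig2 (gene of 3221 bp), Dusp6 (4259 bp), Sox2 (2057 bp), Hes1 (3413 bp), Olig1 (2162 bp), Gas1 (2961 bp), a surface protein gene that acts in hedgehog signalling, Ckb (2978 bp), the brain creatine kinase gene, Adm (2160 bp), Phlda1 (2360 bp), Pcbp1 (1830 bp), Gadd45g (1791 bp) and 1810049J17Rik (462 bp). Genes of 1 exon made up 6.74% of the broad promoter peaks, 2.17% of the remaining ones and 6.74% of the high-scoring narrower ones. At broad peaks they included Sox11, Sox2, Sox4, Sox21, Jun, Pou3f1 and Fzd1. Peaks that ended within that exon included those at Sox11, Sox4, Sox21, Jun and Pou3f1.

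CpG islands were present at most peaks of both classes and were longer at broad peaks. Islands were found by a scan of the genome sequence, with at least 200 bp, 50% GC and a CpG observed/expected ratio of 0.6. The observed/expected ratio divides the count of CG by the count that the C and G content would give. An island overlapped 278 broad peaks, 92.7% (89.2% to 95.1%), where the background of all PHF2 peaks was 95.6% and the share of remaining peaks was 95.8%. With stricter islands the order turned, with 87.0% of broad and 79.0% of remaining peaks. The longest island at each peak had a median of 1541 bp (1410 to 1711) at broad peaks, 780 bp (768 to 794) at remaining peaks and 1210 bp (1125 to 1277) at the high-scoring narrower ones. The middle 50% ran from 976 to 2193 bp at broad peaks and from 540 to 1083 bp at remaining peaks, so the classes overlapped. An island of 2 kb or more lay at 99 broad peaks, 33.0% (27.9% to 38.5%), against 3.25% of remaining peaks and 7.46% of high-scoring narrower ones. A longer peak has more room to touch several islands, and 41 broad peaks (13.7%) overlapped 2 or more, against 1.60% of remaining peaks.

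Islands nevertheless filled a smaller part of broad peaks. The median share of peak bases inside islands was 49.7% (46.2% to 52.5%) at broad peaks and 55.5% (54.8% to 56.2%) at remaining peaks. Both ends of the islands lay inside the peak at 73.3% of broad peaks, 65.8% of remaining peaks and 75.1% of high-scoring narrower peaks. At Spry4 the island of 908 bp covered 15% of the peak, and at Nes 943 bp covered 22.1%. Dusp6 had 26.6% and Sox2 50.9%. Olig2 had 2 islands that covered 40.8%, the longer of 2322 bp, and Sox9 had 3 that covered 65.7%. At Bahcc1 the island, of 7179 bp, was longer than the peak and covered 95.7% of it. Brd2 (4585 bp), a bromodomain protein gene, Mex3b (4390 bp), an RNA-binding protein gene, Zmiz1 (3838 bp) and Foxo3 (3822 bp), a forkhead factor gene, had the next longest islands. Within the broad peaks, peak length and island length were only weakly related, with a Spearman's rho of 0.13 over 300 peaks that share a library, against 0.32 over the remaining 5692.

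The enrichment in CG reached farther from the start at broad peaks on both sides. The windows lay at fixed distances from the start nearest the peak centre, so their size was not set by the peak's length, although the choice among several starts depends on the peak. From 1 to 2 kb downstream the median observed/expected ratio was 0.475 (0.436 to 0.517) at broad peaks, 0.254 (0.251 to 0.258) at remaining peaks and 0.342 (0.309 to 0.377) at high-scoring narrower peaks. From 1 to 2 kb upstream it was 0.374 (0.340 to 0.409) at broad peaks and 0.211 (0.208 to 0.214) at remaining peaks. Close to the start the classes were nearer to each other, with 0.796 at broad and 0.736 at remaining peaks over the 1 kb downstream. In steps of 250 bp the CG density just downstream of the start was 9.59 per 100 bp at broad and 10.3 per 100 bp at remaining peaks. In the step that begins 1000 bp downstream it was 4.60 at broad and 2.05 at remaining peaks. By 2 to 3 kb downstream the ratio was 0.263 at broad peaks and 0.199 at remaining peaks.

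**Figure D3:**
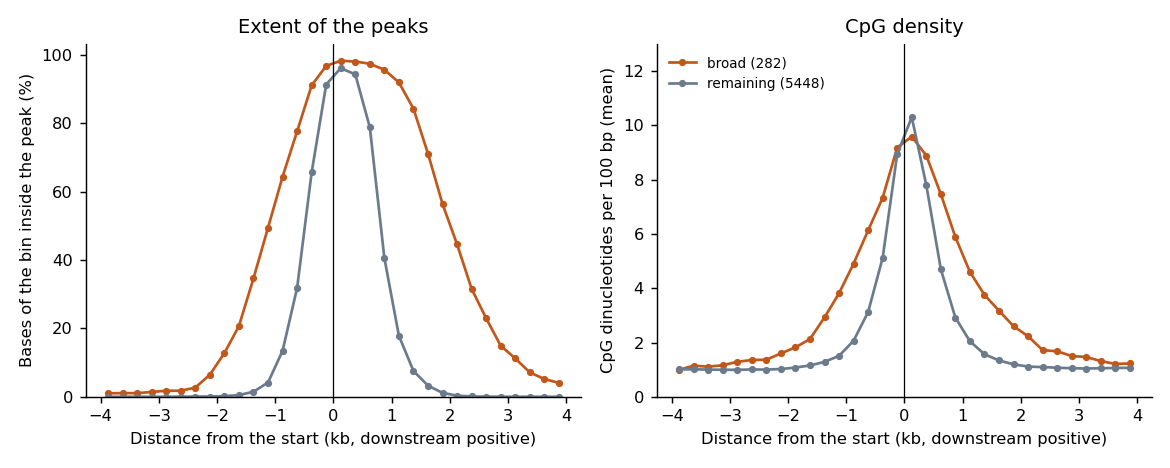
Share of bases inside the peak (left, percent) and mean CG dinucleotides per 100 bp (right) in steps of 250 bp around the nearest coding start (horizontal axis, kb), for 282 broad and 5448 remaining promoter peaks. The CG curve of the broad peaks is lower just downstream of the start and higher farther out on either side, and the curves come close to each other near 4 kb.

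A minority of broad peaks had no island at all. There were 22 of them, 16 at coding promoters and 6 elsewhere. The longest was the 3916 bp peak at Tcf4, which encodes a bHLH partner of proneural factors, followed at coding promoters by Adm (3638 bp), which encodes the peptide adrenomedullin, E130114P18Rik (3377 bp), Zfp462 (3376 bp), Maml2 (3323 bp) and Fgf14 (3253 bp). Tnc (2778 bp) and Ptn (2760 bp), which encode a matrix glycoprotein and a growth factor of radial glia, were among them, as were the fatty acid desaturase gene Scd2 (2977 bp) and Map2. At coding promoters the shortest islands were at Gria2 (273 bp), a glutamate receptor gene, Slc1a3 (303 bp), Itgb8 (316 bp) and Tnik (330 bp). The second broad peak at Tcf4 (3031 bp) did overlap islands, and so did the second peaks at Magi1 (2592 bp) and E130114P18Rik (2998 bp, shared with Nfia), so that these 3 genes each had 1 broad peak with and 1 without an island.

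Island length increased with peak length over the longer peaks. All peaks were divided by length into 20 classes of 299 or 300. The class just below the broad peaks, 2131 to 2551 bp, had a median longest island of 1269 bp (1182 to 1332), against 1541 bp in the broad class, and the 7 shortest classes had 619 to 738 bp. The ratio 1 to 2 kb downstream was 0.475 in the broad class, 0.345 (0.308 to 0.375) in the class below and 0.234 in the shortest class. The distance to the next other coding start was 114636 bp (87246 to 135276) in the broad class, 66384 bp (54342 to 80249) in the class below and 32797 bp in the shortest class. For these 3 measures the interval of the broad class lay above that of the class below. The intervals for gene length overlapped, with 75390 bp (56555 to 95630) in the broad class and 62495 bp (46132 to 78506) in the class below.

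**Figure D4:**
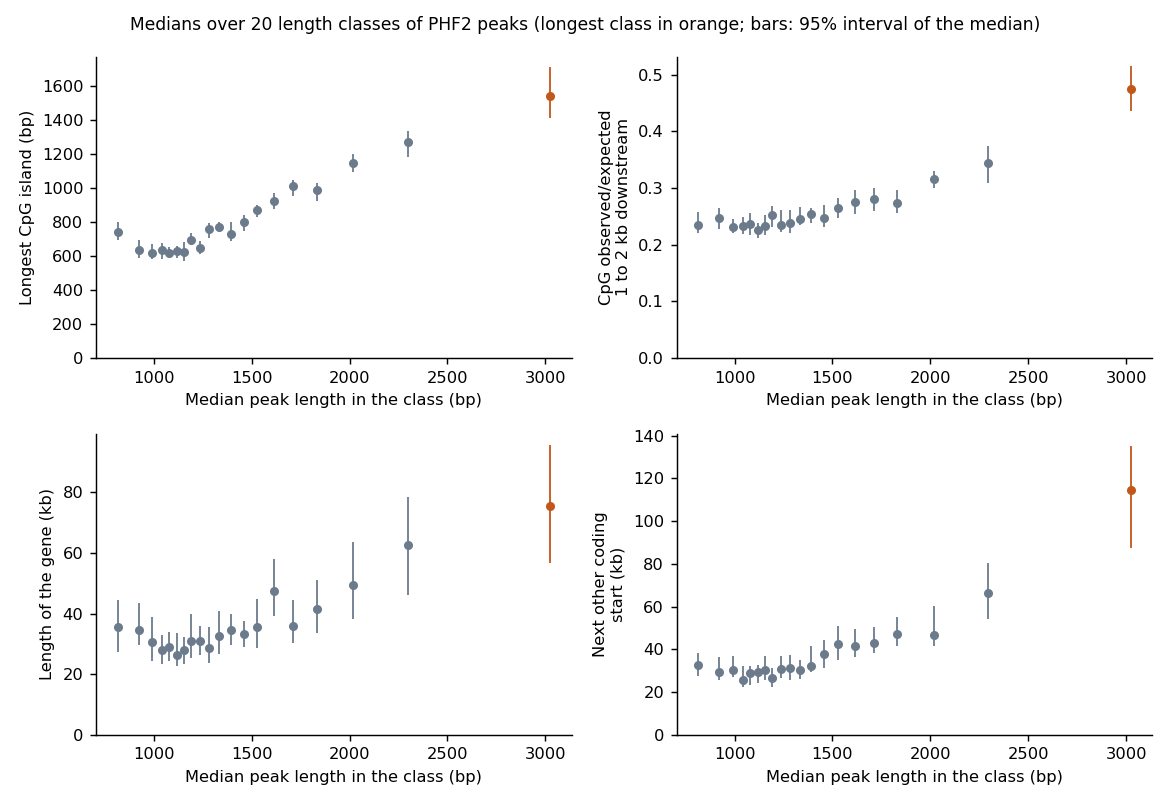
Medians of 4 measures (vertical axes, with units) over 20 length classes of PHF2 peaks, against the median peak length in each class (bp); bars are 95% intervals of the median and the broad class is in orange. The broad class lies highest in each panel, and its interval overlaps that of the class below only for gene length.

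The surroundings of broad peaks were poor in other genes. The median number of coding genes within 100 kb, the gene itself included, was 2 at broad peaks, 4 at remaining peaks and 2 at high-scoring narrower peaks. No other coding start lay within 100 kb at 159 broad peaks, 53.0% (47.4% to 58.6%), against 18.2% of remaining peaks (17.2% to 19.2%) and 37.8% of high-scoring narrower peaks (31.4% to 44.7%). The most isolated were Adgrl3 (2333629 bp), Adgrl2 (2092014 bp) and Nova1 (1743825 bp), an RNA-binding protein gene of neurons. Sox11 (871874 bp), Sox9 (782421 bp), Sox2 (569300 bp) and Sox4 (522809 bp) were isolated as well. Other genes had a coding neighbour close by, such as Brd2 (3899 bp), Srsf2 with Mfsd11 (4168 bp) and Sox6 (6466 bp). A divergent coding start within 1 kb upstream was present at 6.03% of broad promoter peaks (3.8% to 9.44%), 11.4% of remaining peaks and 4.66% of high-scoring narrower peaks. On chromosome X there was 1 broad peak, Apln, among 66 PHF2 peaks, and chromosome 3 had the largest share, 27 of 333.

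Genes at broad peaks were longer by median and widely spread. The median gene length was 75390 bp (56555 to 95630) at broad peaks, 34176 bp (32644 to 35429) at remaining peaks and 62259 bp (44294 to 80997) at high-scoring narrower peaks. The lower quartile was 12301 bp at broad and 14114 bp at remaining peaks, so the classes differed more in their long than in their short genes. Genes of 100 kb or more made up 43.6% of broad (38.0% to 49.5%), 19.7% of remaining and 35.8% of high-scoring narrower promoter peaks (29.3% to 42.7%). The longest were Dab1 (1125486 bp), which encodes the adaptor of the reelin pathway, Auts2 (1106012 bp), Rbms3 (1057168 bp) and Gpc6 (1051230 bp). The median exon 1 was 354 bp (293 to 401) at broad peaks, 213 bp (207 to 219) at remaining peaks and 292 bp (234 to 355) at high-scoring narrower peaks. Repeats made up 26.8% (26.1% to 27.7%) of the sequence 5 to 50 kb from broad peaks by median, and 30.1% (29.9% to 30.4%) around remaining peaks.

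Other PHF2 peaks were farther from broad peaks by median, while a larger share of broad peaks had another within 10 kb. The gap to the next PHF2 peak had a median of 153743 bp (130565 to 190154) at broad and 74373 bp (71220 to 77665) at remaining peaks. At high-scoring narrower peaks it was 116740 bp (97134 to 144328), and this interval overlapped that of the broad peaks. Another peak nevertheless lay within 10 kb of 42 broad peaks, 14% (10.5% to 18.4%), against 9.86% of remaining peaks (9.11% to 10.7%). At Spry2 the gap was 35 bp, at Sox2 44 bp, at Ccnd1 80 bp, at Myc 116 bp, at Olig2 176 bp and at Dusp6 264 bp. The broad peaks at Zic2 (4416 bp) and Zic5 (3266 bp), neighbouring zinc finger factor genes, lay 8584 bp apart. The 2 broad peaks at Tnrc18 lay 66 bp apart.

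Broad peaks away from coding promoters numbered 18, and 14 of these lay at the start of another kind of gene. At Malat1 the peak of 6347 bp had a small island that covered 2.4% of it. Of the noncoding gene C130071C03Rik, which holds Mir9-2, 2 broad peaks were called 2742 bp apart (4163 and 3319 bp), with the hairpin in the shorter. The gene Gm3764, which holds Mir9-1, likewise had 2 broad peaks, 3516 bp at the hairpin and 2821 bp, 4744 bp apart. Mir125b-1 lay in a peak of 3644 bp without an island, and Mirlet7i in a peak of 2553 bp whose island was 1402 bp. In total 4 broad peaks held 7 of the 1005 microRNA hairpin entries of RefSeq, and 34 of the remaining peaks held 36. Pvt1, the noncoding gene next to Myc, had a peak of 2675 bp, 51558 bp from the start of Myc, itself at a broad peak. Peaks were also called at Dleu2 (2885 bp) and at Mir99ahg (2590 bp). The 4 peaks with no annotated start within 1 kb had as the nearest coding start Zfp608 (2388 bp away), Kdm6b (3527 bp), Ppara (63441 bp) and Tln2 (73782 bp). With gaps of up to 500 bp joined, the peak near Zfp608 was part of a stretch that reached the Zfp608 promoter.

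H3K9me2 regions were compared as the second readout, from a separate immunoprecipitation of the same kind of cells. On chromosomes 1 to 19 and X there were 36111 H3K9me2 regions, of which 20085 had the shortest length of 73 bp. Within 10 kb of the centre, a region lay near 45 broad peaks, 15% (11.4% to 19.5%), with a background of 17.3% over all PHF2 peaks and 17.4% among the remaining ones. Measured from the peak edge the shares were 19.7% of broad and 18.5% of remaining peaks, so the order of the classes depended on where the distance was measured from. Within 100 kb, a region lay near 279 broad peaks, 93.0% (89.5% to 95.4%), where the background was 84.2%, the remaining peaks had 83.7% (82.8% to 84.7%) and the high-scoring narrower peaks 86.6% (81.2% to 90.6%). The nearest region was 27022 bp (23284 to 31108) from the centre of broad peaks by median and 36498 bp (35184 to 38093) from that of remaining peaks. For high-scoring narrower peaks it was 33090 bp (25905 to 38094), an interval that overlapped that of the broad peaks.

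By distance, H3K9me2 regions were at a higher density around broad than around remaining peaks from 10 kb outward. Within 2 kb of the centre there were 1.67 regions per Mb at broad peaks (exact Poisson interval 0.202 to 6.02) and 5.84 (4.89 to 6.92) at remaining peaks. The broad value rests on 2 regions, and the intervals overlapped. From 10 to 20 kb there were 17.3 per Mb (14.2 to 21.0) around broad peaks, 10.2 (9.63 to 10.8) around remaining peaks and 13.2 (9.88 to 17.3) around high-scoring narrower peaks. From 20 to 50 kb the values were 17.2 (15.4 to 19.3) around broad peaks, 10.8 (10.4 to 11.1) around remaining peaks and 12 (10.2 to 14.2) around high-scoring narrower peaks. From 50 to 100 kb they were 14.7 (13.3 to 16.1), 11.5 (11.2 to 11.8) and 13.6 (12 to 15.3) for the same 3 classes. In the steps from 10 to 20 kb and from 50 to 100 kb the intervals of broad and high-scoring narrower peaks overlapped. The Poisson intervals treat regions as independent. The number of regions within 100 kb ran from 0 to 25 per PHF2 peak, so the intervals may be too narrow. The broad peaks also had fewer genes around them, and the part of gene density in these values was not tested.

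**Figure D5:**
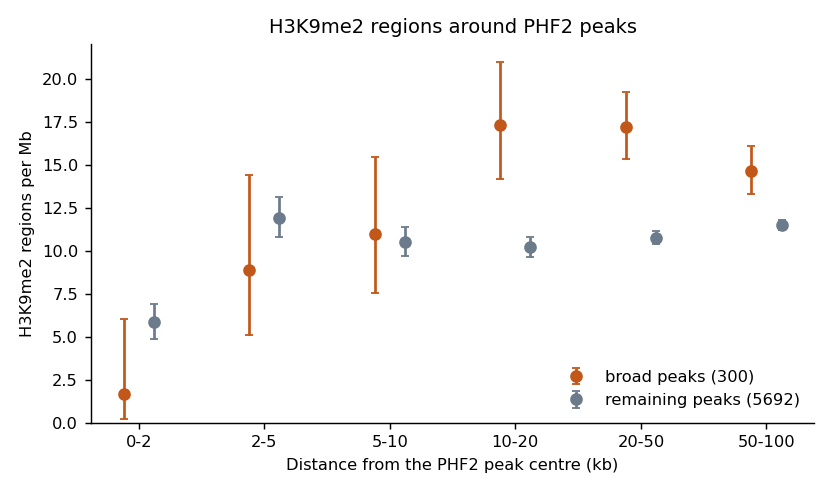
H3K9me2 regions per Mb (vertical axis) by distance from the PHF2 peak centre (horizontal axis, kb) for 300 broad and 5692 remaining peaks, with exact 95% Poisson intervals. These intervals treat regions as independent. The broad peaks lie above the remaining ones from 10 kb outward, and the intervals overlap at shorter distances.

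Hjurp was the only broad peak that overlapped H3K9me2 regions. Its peak at chr1:88275615-88279796 held 2 of them, at chr1:88278410-88278516 and chr1:88279197-88279280, which lay 830 and 1606 bp upstream of the start. The longer, of 107 bp, reads as follows on the forward strand of mm10, with CG in capitals.
H3K9me2 region at Hjurp: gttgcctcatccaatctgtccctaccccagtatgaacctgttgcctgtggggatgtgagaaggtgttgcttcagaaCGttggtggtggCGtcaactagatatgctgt
It held 2 CG and lay outside the annotated exons. With a score of 144.3 this was also the lowest-scoring broad peak, and its island of 491 bp covered 11.7% of it. Within 100 kb of the centre of this peak lay 25 H3K9me2 regions, the largest number at any PHF2 peak. The median over broad peaks was 3. Among the remaining peaks 2 overlapped a region. The next nearest regions to broad peaks lay 945 bp from the edge at Clasp1, a microtubule-binding protein gene, 1183 bp at Adm, 1605 bp at Adamts1 and 1643 bp at Cdh2. At Nes the distance was 1928 bp, at Bahcc1 304054 bp.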

How the data were processed

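PHF2 peaks and H3K9me2 regions came from 1 deposited list each. Per the file headers, MACS was run in Galaxy to make the PHF2 list, and the submitters' processing notes name Bowtie2 and mm10. Not given in the sources used here are the version, control and settings of MACS and the caller of the H3K9me2 list. Sequencing depth and caller settings can change peak lengths. The deposited positions are on mm10 and are printed 1-based. The deposited score, 1 value per PHF2 peak, has no stated scale and served only to rank and filter peaks within that list.

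Starts were those of coding transcripts of GENCODE M21. Islands were found on GRCm38 by a running score of +17 for each CG and -1 for other bases, then tested for length, GC and observed/expected ratio. The island finder was checked on simulated sequence. Distances were measured from peak centres unless stated. Python 3.11.15, numpy 2.4.6, pandas 2.3.3, scipy 1.17.1, numba 0.67.0 and matplotlib 3.10.9 were used.

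The peaks and the 22 gene lists were chosen with earlier results of these data known. Named genes were those at the 20 longest peaks, at the threshold, at the extremes of reach, island length and distance to H3K9me2, at up to 8 peaks without a coding promoter, and up to 8 per gene list. The longest and most isolated genes, genes near other peaks and the other single examples were chosen after their values were seen. The alternatives tried were other length thresholds, promoter windows, starts, island definitions and reference points. Some genes that this rule named are not reported here.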

Additional observations from a re-analysis of the deposited data

How the results depend on the processing

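A total of 12 results were recomputed under 16 alternative settings, which gave 58 values. Of these, 38 kept their side of the remaining peaks and moved by less than the counting interval, 15 moved by more, and 5 changed side. No paired analysis was possible because each target had 1 sample. The causes were not tested.

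The share of broad peaks longer downstream was 89.4% (remaining peaks 89.3%) with the 5′-most start, 82.4% with the APPRIS principal start and 81.8% (78.5%) at a higher length threshold, which keeps 150 peaks. The share overlapping an island was 87.0% (79.0%) with stricter islands. The share with an H3K9me2 region within 10 kb was 19.7% (18.5%) from the peak edge and 8.67% (7.84%) with regions over the shortest length. The share at a coding promoter was 71% (94.6%) by peak centre, and that at 2 or more genes was 10.5% at the 90th percentile. The median downstream reach was 2399 bp with the 5′-most start, 2220 bp with the APPRIS start, 1606 bp at the 90th percentile and 2419 bp at the higher threshold, and the upstream reach was 782.5 bp and 979 bp with the first 2 of these. The longest island was 1345 bp at the 90th percentile, and the share of bases in islands was 43.4% at the higher threshold. The observed/expected ratio 1 to 2 kb downstream was 0.564 with the 5′-most start, 0.400 at the 90th percentile and 0.539 at the higher threshold. Genes of every kind within 100 kb numbered 5 (7).

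Joining peaks across gaps of up to 500 bp was chosen after seeing the data. It gave 95.2% at a coding promoter, 93.5% with an island and a longest island of 1657.5 bp. The depth of the ChIP samples is unknown and there is no replicate, so only counting error is covered.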

Other observations

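Some broad peaks were pieces of longer stretches. A gap of at most 500 bp separated 25 of 300 broad peaks (8.33%) and 209 of 5692 remaining peaks (3.67%) from a neighbour. When such neighbours were joined, 5872 stretches resulted, and 256 of the 300 broad peaks (85.3%) lay in stretches at or above the new 95th percentile of length. The longest stretch was then at Olig2 (8561 bp), followed by Tnrc18 (7855 bp, made of its 2 broad peaks). After a stretch of 4 peaks at Zfp608 (7490 bp) came Sox2 (7267 bp), Spry2 (6993 bp) and Dusp6 (6867 bp). The stretches at Sox2, Spry2 and Dusp6 were each made of a broad peak and a narrower neighbour. At Pou3f3, which encodes a POU factor of neural progenitors, 3 peaks of at most 1549 bp joined into 4789 bp, although no single one of them was broad.

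The start of a noncoding gene lay inside 72 of the 300 broad peaks, 24.0% (19.5% to 29.1%), inside 16.7% of the remaining peaks (15.7% to 17.7%) and inside 21.9% of the high-scoring narrower peaks (16.7% to 28.1%). A longer peak has more room for such a start, and this share was not set against length.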
